A study of Mus musculus with 4 samples.

Results

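The genes described here are the pattern recognition receptors of innate immunity, the inflammasome and its cytokines, the caspases and the Fc receptors. They were taken by symbol: every listed gene whose name begins with Tlr, Clec or Casp and a digit, or with Nlrp, Naip, Fcgr or Fcer, together with Aim2, Pycard, Myd88, Il1b and Il18. Of 19175 genes in either table, 70 were members, with 56 among the 12318 genes of the stress table, 64 among the 15396 of the AAV table and 50 in both. The annotation held 97 genes that match these names, and 27 of them were in neither table. Some matches are matches by name only: Casp8ap2 codes for a caspase-associated protein and not for a caspase, and 5 members, Clec7a among them, carry a pseudogene type in the annotation.

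RNA from mouse prelimbic cortex, part of the medial prefrontal cortex, was sequenced in 4 libraries, 1 for each of 4 groups of C57BL/6 mice aged 8 weeks. The stress pair set mice labelled susceptible after chronic social defeat stress, in which a mouse meets an aggressor again and again, beside mice labelled control, whose labels carry the same stress tag, so their own treatment is unclear. The AAV pair set mice given an adeno-associated virus (AAV) that expresses CDYL, a chromatin corepressor that reads methylated histone tails, beside mice given AAV-GFP, which expresses green fluorescent protein. The sources used here do not give the promoter of the virus, the cells it reached or the number of mice behind a library, and no uninjected mice belong to this pair. Values are FPKM, which counts sequenced fragments relative to transcript length and library size, so levels can be compared between genes within a library.

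With 1 library per group there is no replicate error, and no p-value was computed. The size rule called a gene higher or lower when it reached 1 FPKM in either library of its table and its FPKM + 1 differed by a factor of 1.5 or more, 0.58 on the log2 scale. Genes whose 2 values lay closer than 0.32 on the log2 scale are not in the tables, so a missing gene is not shown to be alike. Effective depth, read from the steps between low values, was 14300000 fragments in the control library and 22600000 to 23800000 in the other 3, so 1 FPKM of a 2 kb transcript rested on about 28.6 fragments in control and on 45.2 to 47.6 elsewhere. Intervals given with ratios are 95% binomial intervals on fragment numbers rebuilt from that depth and the longest annotated transcript; they cover counting error only. Cdyl stood at 2.68 FPKM in the AAV-GFP library and 1052 FPKM in the AAV-CDYL library, and at 1.98 and 2.54 FPKM in control and susceptible. Neuronal markers were abundant in every library. The 5 listed in the stress table summed to 1616 FPKM in control and 1163 in susceptible. The 8 listed in the AAV table, normalized separately, summed to 4154 in AAV-GFP and 2668 in AAV-CDYL.

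Toll-like receptors bind microbial lipids, proteins and nucleic acids at the cell surface or in endosomes and signal for the most part through the adaptor MyD88. NLRP, NAIP and AIM2 proteins are cytosolic sensors that join the adaptor ASC, the product of Pycard, to caspase-1, which cleaves the precursors of interleukin-1 beta and interleukin-18; this complex is the inflammasome. C-type lectins of the Clec genes bind sugars or protein ligands, and Fc receptors bind antibody. In the brain, microglia and border macrophages are the best known source of most of these transcripts.

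Sequences upstream of the start sites are shown for the 4 Fc gamma receptors, which code for related proteins and differed in their proportions between libraries, and for the Toll-like receptor, lectin and inflammasome members with the largest differences. The stretches are the 250 bases before a RefSeq start site (build GRCm38.p6), read 5′ to 3′ on the gene's own strand. Fcgr1 is at chr3:96293970-96294219 on the minus strand. The other Fc gamma receptors are on chromosome 1, Fcgr2b at chr1:170976072-170976321 (minus), Fcgr3 at chr1:171059404-171059653 (minus) and Fcgr4 at chr1:171018676-171018925 (plus). Tlr2 is at chr3:83841609-83841858, Clec7a at chr6:129472780-129473029, Pycard at chr7:127993868-127994117 and Il1b at chr2:129371140-129371389, all on the minus strand. Capitals mark matches, on either strand, to 4 motifs: GAGGAA, the core of sites for the myeloid factor PU.1; GAAANNGAAA, the interferon-stimulated response element; TTCNNNGAA, the gamma-activated site bound by STAT proteins; and the kappaB site of NF-kappaB.
Fcgr1: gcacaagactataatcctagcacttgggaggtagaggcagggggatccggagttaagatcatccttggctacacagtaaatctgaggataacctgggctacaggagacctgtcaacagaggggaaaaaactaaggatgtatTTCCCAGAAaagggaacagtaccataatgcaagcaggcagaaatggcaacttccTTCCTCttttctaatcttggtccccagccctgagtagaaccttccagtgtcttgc
Fcgr2b: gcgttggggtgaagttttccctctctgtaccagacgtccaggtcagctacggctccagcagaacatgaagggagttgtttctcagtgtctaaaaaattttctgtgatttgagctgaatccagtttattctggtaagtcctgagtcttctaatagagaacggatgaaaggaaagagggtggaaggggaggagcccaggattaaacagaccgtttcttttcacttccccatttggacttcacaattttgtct
Fcgr3: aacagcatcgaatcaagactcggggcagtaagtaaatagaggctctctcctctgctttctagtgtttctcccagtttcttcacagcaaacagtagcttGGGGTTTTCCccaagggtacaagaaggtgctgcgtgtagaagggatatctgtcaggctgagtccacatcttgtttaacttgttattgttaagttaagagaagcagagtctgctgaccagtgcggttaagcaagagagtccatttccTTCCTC
Fcgr4: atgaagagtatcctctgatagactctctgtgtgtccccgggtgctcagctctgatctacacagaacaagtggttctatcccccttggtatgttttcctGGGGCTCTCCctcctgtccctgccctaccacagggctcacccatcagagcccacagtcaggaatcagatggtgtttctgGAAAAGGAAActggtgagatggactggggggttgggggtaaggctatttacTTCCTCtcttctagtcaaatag
Tlr2: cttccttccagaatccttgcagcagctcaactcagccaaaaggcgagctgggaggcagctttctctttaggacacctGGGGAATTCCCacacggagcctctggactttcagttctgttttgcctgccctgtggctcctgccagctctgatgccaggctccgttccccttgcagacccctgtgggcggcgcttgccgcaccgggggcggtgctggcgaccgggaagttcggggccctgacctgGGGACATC
Clec7a: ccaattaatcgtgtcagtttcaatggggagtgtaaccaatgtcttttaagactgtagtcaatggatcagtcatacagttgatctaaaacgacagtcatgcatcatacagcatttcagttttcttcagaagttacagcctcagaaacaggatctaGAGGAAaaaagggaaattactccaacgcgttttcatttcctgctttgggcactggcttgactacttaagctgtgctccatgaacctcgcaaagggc
Pycard: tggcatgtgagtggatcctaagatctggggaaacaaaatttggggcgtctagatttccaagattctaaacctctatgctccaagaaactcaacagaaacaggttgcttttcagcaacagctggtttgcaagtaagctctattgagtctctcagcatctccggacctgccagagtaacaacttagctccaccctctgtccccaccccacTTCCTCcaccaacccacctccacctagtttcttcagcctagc
Il1b: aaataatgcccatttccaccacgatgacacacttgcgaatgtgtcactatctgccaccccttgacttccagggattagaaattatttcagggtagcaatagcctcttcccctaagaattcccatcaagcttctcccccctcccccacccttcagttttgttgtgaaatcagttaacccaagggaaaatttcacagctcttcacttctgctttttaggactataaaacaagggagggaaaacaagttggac
The Fcgr4 stretch held the most capitals, with a kappaB match at -152, the interferon element GAAAAGGAAA at -73 and TTCCTC, the PU.1 core on the other strand, at -22 from the start site. Fcgr3 held TTCCTC at -6 and a kappaB match at -152. Fcgr1 held TTCCTC at -55 and the STAT site TTCCCAGAA at -109, and Fcgr2b and Il1b held no match. In Tlr2 overlapping kappaB matches began at -173 and -172, and the capitals that close the stretch begin a kappaB match at -8 that runs past the start site. Clec7a held GAGGAA at -96 and Pycard held TTCCTC at -42.

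Windows from 250 bases before to 50 bases after the start were found for 57 of the 70 members, and for 28 of the 31 called higher in the AAV-CDYL library. Among those 28, the PU.1 core was found in 13, the kappaB site in 6 (Casp4, Fcgr3, Fcgr4, Naip5, Tlr2 and Tlr3), the STAT site in 4 and the interferon element in 3 (Clec2d, Fcgr4 and Myd88). Counted by window, the PU.1 core was in 45.5% of the 33 windows of these genes and in 28.3% of all 32851 windows; the kappaB site was in 24.2% and 8.5%, the STAT site in 12.1% and 8.3%, and the interferon element in 9.1% and 3.4%. Over all 57 members with a window, called or not, the PU.1 core was found in 28 and the kappaB site in 9. The STAT site was found in 8 of them and the interferon element in 6. The motifs were thus not confined to members called higher. These counts and shares are descriptions of letters in short windows, with no test, and the stretches were picked with their matches in view.

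Few members passed the size rule in the stress pair, and those called higher were Fc receptors and a cytokine. Of 56 listed members, 40 stood above control and 16 below. At 1 FPKM or more in the control library were 12 members, a floor that the susceptible value does not decide; 1 of them, Fcgr3, was higher and 1, Casp8ap2, was lower, where 13.5% of all such genes were higher and 12.4% lower. With the floor met in either library 17 members passed, 5 of them only through the susceptible value; Fcgr3, Fcgr4 and Il1b were higher and Casp8ap2 lower, beside 18.9% of all genes higher and 10.8% lower. The share of members called higher, 17.6%, was near that background. Beside these differences the marker genes of neutrophils summed to 82.7 FPKM in control and 329 in susceptible and those of microglia to 77.5 and 41.0; their part in the results was not tested. In tissue libraries, a change in the number of cells of a type and a change in RNA per cell cannot be told apart. The median difference of the 12 members was 0.34 on the log2(FPKM + 1) scale, and that of all genes at 1 FPKM or more in control was -0.29. The 39 members under the floor reached at most 0.934 FPKM.

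Most listed members of every class in the AAV table stood above AAV-GFP, though the lectins called lay near the background. Of 64 listed members, 57 stood above AAV-GFP and 7 below. Among the 17 at 1 FPKM or more in AAV-GFP, 12 were higher and 1, Clec11a, was lower, where 21.2% of all such genes were higher and 17.4% lower; their median difference was 1.18, beside -0.32 for all such genes. With the floor in either library 37 members passed, 20 of them only through AAV-CDYL, and 31 were higher and 1 lower, beside 31.3% of all genes higher and 14.4% lower. The summed FPKM of the 64 listed members was 108.8 in AAV-GFP and 381 in AAV-CDYL. The 56 listed in the stress table, normalized separately, summed to 96.4 in control and 105 in susceptible. In the stress sums Clec16a held 35.5 FPKM of control and 25.6 of susceptible. In the AAV sums Clec16a held 29.9 and Clec2l 21.7 FPKM of AAV-GFP, and both were lower in AAV-CDYL. Marker genes of microglia, at 149 and 466 FPKM in sum, and of monocytes and macrophages, at 8.66 and 156, also stood higher in AAV-CDYL. The 27 members under the floor reached at most 0.967 FPKM.

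**Figure D1:**
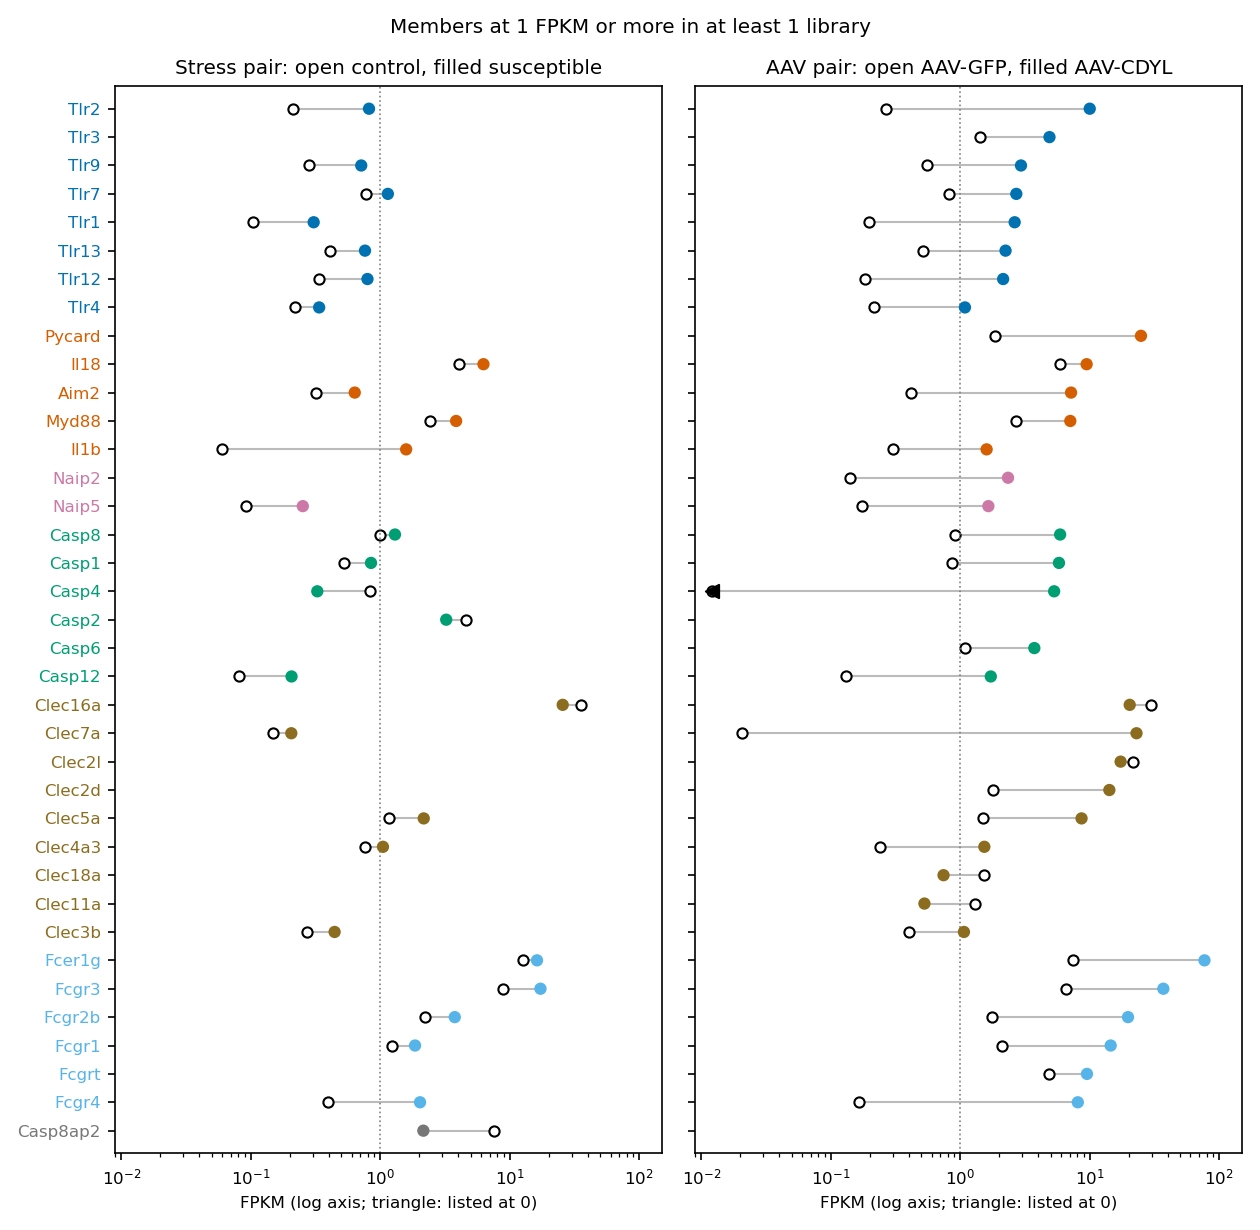
FPKM of 37 of the 39 members at 1 FPKM or more in at least 1 library, on a log axis, with the stress pair on the left (open, control; filled, susceptible) and the AAV pair on the right (open, AAV-GFP; filled, AAV-CDYL). A row without points is a gene not listed in that table, the triangle marks a value listed at 0, and the dotted line is 1 FPKM. In the AAV pair nearly all filled points lie to the right of the open ones, Clec7a from 0.0204 to 23.0, and the lectins Clec16a, Clec2l, Clec18a and Clec11a are the exceptions.

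The p-values and q-values of the authors compare 1 column with another and are given here as theirs. In the authors' deposited table for the stress pair, no member had q under 0.05 and 3 had p under 0.05, all above control: Fcgr3 at 0.0205, Nlrp3 at 0.04435 and Tlr2 at 0.04915. Over all genes of that table, 3.12% had such a p with a higher and 1.22% with a lower susceptible value. In the authors' deposited table for the AAV pair, 1 member, Casp4, had q under 0.05 (q = 0.00727), and 18 had p under 0.05, all above AAV-GFP. Over all genes of the AAV table the corresponding shares were 5.16% higher and 0.318% lower.

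Toll-like receptors were scarce in the stress pair and were all above AAV-GFP in the AAV-CDYL library. None of the 9 listed in the stress table reached 1 FPKM in control, and none of them was called. All 11 listed in the AAV table stood above AAV-GFP, and 8 of them passed the floor, 7 only through AAV-CDYL, and were called higher. Of all genes that passed this floor 31.3% were higher. The 9 Toll-like receptors of the stress table summed to 2.89 FPKM in control and 5.11 in susceptible. The 11 of the AAV table summed to 4.41 in AAV-GFP and 30.1 in AAV-CDYL.

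Tlr2, which recognises bacterial lipopeptides together with the products of Tlr1 or Tlr6, stood at 0.212 FPKM in control, 0.818 in susceptible, 0.269 in AAV-GFP and 9.998 in AAV-CDYL. It was the most abundant Toll-like receptor in AAV-CDYL and stood behind Tlr3, Tlr7, Tlr9 and Tlr13 in AAV-GFP. The AAV-CDYL value was 37.2 times that of AAV-GFP (interval 23.8 to 64.2, from about 18 and 717 fragments), and the susceptible value 3.85 times that of control (1.93 to 9.01, from about 9 and 57 fragments). On the log2(FPKM + 1) scale its stress difference of 0.58 lay just inside the 1.5-fold line, and it did not reach the floor of that pair. Tlr1, the partner, stood at 0.103, 0.306, 0.196 and 2.63 FPKM in the same order of libraries. Tlr4, the receptor for lipopolysaccharide, stood at 0.221, 0.337, 0.215 and 1.09 FPKM, the smallest difference, 0.78, among the 8 called.

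The endosomal receptors for nucleic acids differed less in the AAV pair than Tlr2 did. Tlr3, which binds duplex RNA, was the only Toll-like receptor above 1 FPKM in AAV-GFP; it stood at 1.43 there and at 4.89 in AAV-CDYL and is not listed in the stress table. Tlr7, a receptor for RNA of viruses and bacteria, stood at 0.770 FPKM in control, 1.14 in susceptible, 0.812 in AAV-GFP and 2.71 in AAV-CDYL. Tlr9, which binds DNA with unmethylated CpG, stood at 0.283, 0.712, 0.549 and 2.94 FPKM. Tlr7 and Tlr9 lay above their reference in both pairs, and the AAV ratios were 3.41 for Tlr3, 3.34 for Tlr7 and 5.36 for Tlr9. Tlr13, a mouse receptor for bacterial ribosomal RNA, stood at 0.410, 0.762, 0.518 and 2.24 FPKM. Tlr12, which senses the parasite protein profilin, stood at 0.334, 0.796, 0.183 and 2.14 FPKM. Tlr8 was listed at 0 in AAV-GFP and at 0.511 FPKM in AAV-CDYL. Part of Tlr3, 7.32% of its exonic bases, overlaps another annotated gene, and the library kit does not mark strand.

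Myd88, the adaptor shared by most Toll-like receptors, stood at 2.40 FPKM in control, 3.85 in susceptible, 2.72 in AAV-GFP and 7.08 in AAV-CDYL. It was called higher in the AAV pair, with a difference of 1.12, and reached 0.51 in the stress pair, under the line. Its fragments are shared in part with the overlapping gene Acaa1a, which covers 11.3% of its exonic bases, and the authors' assembly placed it in 1 locus with other listed genes.

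Of 30 other genes of Toll-like receptor signalling, 19 were in the stress table and 22 in the other. For susceptible against control, 10 passed the floor, with 1 higher and 2 lower and a median difference of 0.34; the median of all genes that passed was 0.24 in the stress pair and 0.30 in the AAV pair. The higher gene was Cd14, a coreceptor for lipopolysaccharide, at 1.20 FPKM in control and 4.55 in susceptible. The lower ones were Irak2, a kinase next to MyD88, at 12.1 and 6.36 FPKM, and Traf3, an adaptor for type I interferon production, at 15.8 and 9.28 FPKM. These counts lie near the shares of all genes that passed, 18.9% higher and 10.8% lower. With AAV-CDYL, 19 passed, with 11 higher and 1 lower and a median of 0.63, beside 31.3% of all genes higher and 14.4% lower. At 1 FPKM or more in AAV-GFP 6 of 12 were higher, beside 21.2% of all such genes. Ly86 and Cd180 form a lipopolysaccharide receptor of their own; Ly86 stood at 4.64 and 82.6 FPKM and Cd180 at 0.482 and 12.4. Unc93b1, which carries endosomal Toll-like receptors to their compartment, stood at 4.59 and 30.7 FPKM.

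Among the adaptors, sensors and cytokines of the inflammasome, the adaptor Pycard and the DNA sensor Aim2 had the largest differences in the AAV pair on the log2(FPKM + 1) scale, at 3.18 and 2.53. All 5 members among the adaptors, AIM2 and cytokines were called higher there, beside 31.3% of all genes. At 1 FPKM or more in AAV-GFP this was 3 of 3, beside 21.2% of all such genes. Pycard, whose product ASC assembles the inflammasome, stood at 1.85 FPKM in AAV-GFP and 24.9 in AAV-CDYL, a ratio of 13.4 (interval 11.4 to 15.9), and is not listed in the stress table. Of its exonic bases, 12.8% overlap another annotated gene. Aim2, the sensor of cytosolic DNA, stood at 0.317 FPKM in control, 0.635 in susceptible, 0.420 in AAV-GFP and 7.17 in AAV-CDYL. Its AAV ratio was 17.1 (interval 11.6 to 26.2) from about 27 and 485 fragments. In both tables Aim2 shares a locus with another listed gene.

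The cytokine Il1b stood at 0.0597 FPKM in control, 1.58 in susceptible, 0.302 in AAV-GFP and 1.60 in AAV-CDYL. Its levels in susceptible and AAV-CDYL were close in size, but the tables were normalized separately. The control value rested on about 1 fragment and the susceptible value on about 50, which gave a ratio of 26.5 with an interval from 5.31 to 1247. For AAV-CDYL over AAV-GFP about 9 and 52 fragments gave a ratio of 5.28 (2.68 to 12.7). Il1b was 1 of 6 members of the 50 in both tables whose difference was not larger in the AAV pair, at 1.29 for stress and 1.00 for AAV. Il18, the other inflammasome cytokine, was abundant in every library, at 4.07, 6.26, 5.92 and 9.46 FPKM in the order control, susceptible, AAV-GFP and AAV-CDYL. Its ratios were alike in the pairs, at 1.54 and 1.60, and its difference of 0.60 passed the line only in the AAV pair, by a narrow margin.

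NLRP and NAIP transcripts were scarce, and in the reference libraries most rested on 20 fragments or fewer. In the stress table all 12 listed lay under 1 FPKM, with a summed FPKM of 0.530 in control and 1.32 in susceptible. Nlrp3, the best studied inflammasome sensor, is named here after its values were seen: it stood at 0.0707 FPKM in control, 0.530 in susceptible, 0.224 in AAV-GFP and 0.967 in AAV-CDYL. About 4 and 49 fragments gave a stress ratio of 7.50 (2.78 to 28.9), and about 20 and 93 an AAV ratio of 4.33 (2.70 to 7.56). Among 14 that the AAV table lists, 2 passed the floor, both through AAV-CDYL only. They were Naip5, a receptor for flagellin, at 0.174 and 1.65 FPKM, and Naip2, a receptor for a secretion system protein of bacteria, at 0.140 and 2.34 FPKM. For Naip5 the control and susceptible values were 0.0918 and 0.252 FPKM. The Naip genes are near-identical copies side by side on chromosome 13 (chr13:100144063-100452869), so how fragments were split among them is uncertain. The summed FPKM of the 5 listed there was 0.449 in AAV-GFP and 4.97 in AAV-CDYL.

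Partners of the inflammasome and other interleukin-1 family genes formed a list of 22. Of 18 listed in the stress table, 8 passed the floor, with 3 higher, none lower and a median of 0.43. Of all genes that passed, 18.9% were higher and 10.8% lower. Txnip, a redox protein reported to bind NLRP3, stood at 2.96 and 11.2 FPKM, the decoy receptor Il1r2 at 0.249 and 1.84, and Il1a at 0.304 and 1.27. Among them only Txnip stood at 1 FPKM or more in control, and all 3 share a locus with another listed gene. Of 19 in the AAV table, 12 passed, with 10 higher, none lower and a median of 1.43, beside 31.3% of all genes higher and 14.4% lower. Il18bp, which binds and blocks interleukin-18, stood at 0.472 and 6.89 FPKM, Gsdmd, the pore former cleaved by inflammatory caspases, at 0.817 and 5.28, and Il1a at 0.409 and 3.45. Of these 10 genes, 4 stood at 1 FPKM or more in AAV-GFP.

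Other cytosolic sensors of nucleic acids and peptidoglycan, a list of 21, gave the largest median of the pathway lists in each pair. In the stress pair 8 of 18 listed passed, with 4 higher, none lower and a median of 0.53, beside 18.9% of all genes higher and 10.8% lower. Zbp1, a sensor of Z-form nucleic acid, had 0.298 FPKM in control and 1.39 FPKM in susceptible, and Mndal, a relative of Aim2, at 0.166 and 1.21. Neither stood at 1 FPKM in control, and of the 2 genes of the list that did, none was called. With AAV-CDYL 17 of 20 listed passed, with 16 higher, none lower and a median of 2.55, beside 31.3% of all genes higher and 14.4% lower. Zbp1 was listed at 0 in AAV-GFP and at 23.4 FPKM in AAV-CDYL, and the Aim2 relatives Ifi204 and Mnda stood at 0.0620 and 14.6 FPKM and at 0.0271 and 14.0 FPKM. At 1 FPKM or more in AAV-GFP were 5 genes of the list, of which 4 were higher.

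Among the caspases, all 7 listed passed the floor in the AAV pair, 5 of them only through AAV-CDYL, and 6 were called higher. At 1 FPKM or more in AAV-GFP 1 of 2 was higher, beside 21.2% of all such genes. In the stress pair 4 of the 7 listed passed and none was called. The inflammatory caspases lie side by side on chromosome 9 (chr9:5298517-5373032). Casp1, the inflammasome protease, stood at 0.529 FPKM in control, 0.848 in susceptible, 0.869 in AAV-GFP and 5.79 in AAV-CDYL. Its AAV ratio was 6.66 (4.56 to 10.3) and its stress ratio 1.60 (0.791 to 3.62), an interval that includes 1. Casp4, whose product responds to lipopolysaccharide in the cytosol, was listed at 0 in AAV-GFP and at 5.31 FPKM in AAV-CDYL, while its control value was 0.840 FPKM and its susceptible value 0.326. It was below its reference in the stress pair and above it in the AAV pair; no fold is given against a value listed at 0. Casp12 stood at 0.0817, 0.206, 0.131 and 1.72 FPKM in the order control, susceptible, AAV-GFP and AAV-CDYL.

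Of the apoptotic caspases, Casp6 and Casp8 were called higher in the AAV pair. Casp6 stood at 1.09 FPKM in AAV-GFP and 3.73 in AAV-CDYL and is not listed in the stress table. Casp8, which starts apoptosis at death receptors, stood at 1.00 FPKM in control, 1.30 in susceptible, 0.906 in AAV-GFP and 5.91 in AAV-CDYL; it shares a locus with another listed gene. Casp2, listed in the stress table alone, stood at 4.58 and 3.23 FPKM. Casp8ap2, which matches the name rule but whose product takes part in histone transcript processing, had 7.56 FPKM in control and 2.15 FPKM in susceptible, the largest negative difference among the members, at -1.44.

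Of 21 other regulators of apoptosis, 9 were listed in the stress table, and 8 passed with 2 higher, none lower and a median of 0.42. The count is near the 18.9% of all genes. The higher genes were Tnfrsf1a, the receptor for tumour necrosis factor, at 1.99 and 5.46 FPKM, and the death receptor Fas at 0.960 and 2.80, which passed only through susceptible; at 1 FPKM or more in control 1 of 7 was higher. All 13 that the AAV table lists passed, with 7 higher, none lower and a median of 0.59; at 1 FPKM or more in AAV-GFP 4 of 9 were higher, beside 21.2% of all such genes. Tnfrsf1a stood at 1.76 and 15.1 FPKM, Birc3, an inhibitor of apoptosis, at 0.991 and 5.43, and Fas at 0.776 and 3.02. Tnfrsf1a and Fas were thus called higher in both pairs.

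**Figure D2:**
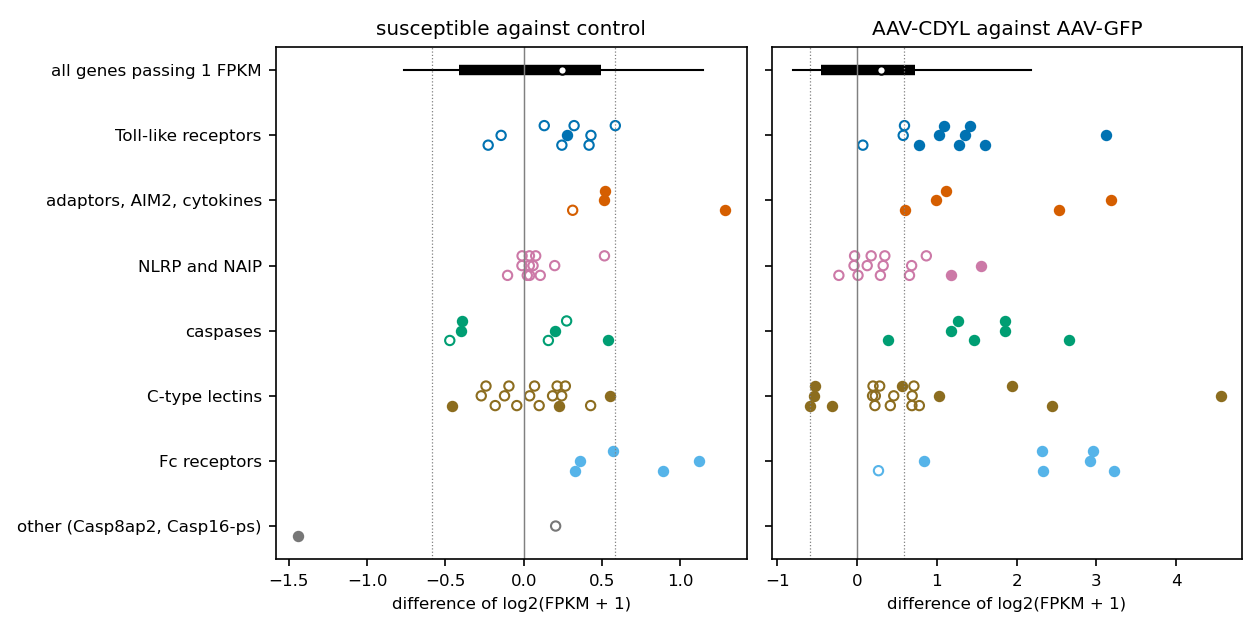
Difference of log2(FPKM + 1) for each member by class, susceptible minus control on the left and AAV-CDYL minus AAV-GFP on the right; filled points passed the floor of 1 FPKM and open points did not. The black bars give all genes that passed (dot, median; thick bar, quartiles; thin line, the 5th to 95th percentiles), and dotted lines mark the 1.5-fold rule. All Fc receptors lie right of 0 in both panels, from 0.33 to 1.12 in the stress pair and from 0.27 to 3.22 in the AAV pair.

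C-type lectins were the class with the widest spread in the AAV pair, from -0.59 to 4.55. Of 20 listed, 16 stood above and 4 below AAV-GFP. The floor was passed by 9, with 4 called higher and 1 lower, beside 31.3% of all genes higher and 14.4% lower. The 6 that reached 1 FPKM in AAV-GFP held 2 higher and 1 lower member and had a median of -0.42. In the stress pair 3 of 17 listed passed and none was called.

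Clec7a, which codes for dectin-1, a receptor for fungal beta-glucan, stood at 0.149 FPKM in control, 0.205 in susceptible, 0.0204 in AAV-GFP and 23.0 in AAV-CDYL. This was the largest difference among the members in either pair, at 4.55, beside 0.07 in the stress pair. The AAV-GFP value rested on about 1 fragment and the AAV-CDYL value on about 1245, which gave a ratio of 1124 with an interval from 212 to 46733. In the authors' deposited table its p was 0.1567. Clec2d, a ligand of natural killer cell receptors, stood at 1.79 FPKM in AAV-GFP and 14.2 in AAV-CDYL, a ratio of 7.94 (5.88 to 10.9), and is not listed in the stress table. Clec5a, a myeloid receptor that signals through the adaptor of the Tyrobp gene, stood at 1.16 FPKM in control, 2.16 in susceptible, 1.502 in AAV-GFP and 8.64 in AAV-CDYL. Its ratio was 5.76 in the AAV pair and, in the stress pair, 1.86 (1.39 to 2.53), a difference of 0.55 that lay under the line. Clec4a3, an inhibitory type lectin of myeloid cells, stood at 0.756, 1.048, 0.239 and 1.53 FPKM. Clec4d and Clec2i were listed at 0 in AAV-GFP and at 0.719 and 0.612 FPKM in AAV-CDYL.

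The lectin genes most abundant in AAV-GFP, Clec16a and Clec2l, stood lower in AAV-CDYL, where Clec7a exceeded both. Clec16a, an endosomal protein of the autophagy pathway that binds no known sugar, stood at 35.5 FPKM in control, 25.6 in susceptible, 29.9 in AAV-GFP and 20.4 in AAV-CDYL. Its difference was -0.46 in the stress pair and -0.53 in the AAV pair, in both under the line. Clec2l, a lectin-like gene of the brain, stood at 21.7 FPKM in AAV-GFP and 17.3 in AAV-CDYL. Clec11a, a secreted growth factor, stood at 1.30 and 0.529 FPKM, a ratio of 0.407 (0.264 to 0.592). Clec18a stood at 1.53 and 0.742 FPKM and missed the line. Clec3b, the secreted protein tetranectin, stood above AAV-GFP, at 0.400 and 1.07 FPKM, and missed the line too. None of these 3 exceeded 2 FPKM in either library of the pair.

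Fc receptors were above their reference in both pairs without exception, and they held the largest summed difference. Of all listed genes, 7220 of 12318 stood above control and 9114 of 15396 above AAV-GFP. The 5 listed in the stress table summed to 25.5 FPKM in control and 41.1 in susceptible; the 7 listed in the AAV table summed to 23.0 in AAV-GFP and 166 in AAV-CDYL, a ratio of 7.23. All 5 at 1 FPKM or more in AAV-GFP were higher in AAV-CDYL, with a median of 2.33, beside 21.2% of all such genes higher. At that level in control 1 of 4 was higher in susceptible, with a median of 0.46, beside 13.5% of all such genes. Fcgr2b, Fcgr3, Fcgr4 and Fcer1g lie within 275.7 kb on chromosome 1 (chr1:170958617-171234365), and their sums were 24.2 and 39.3 FPKM in the stress pair and 15.8 and 141.9 in the AAV pair.

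Fcer1g codes for the common gamma chain, which carries the signal of the activating Fc receptors, and it was the most abundant member in AAV-CDYL. It stood at 12.8 FPKM in control, 16.2 in susceptible, 7.38 in AAV-GFP and 77.0 in AAV-CDYL. The AAV ratio was 10.4 (8.60 to 12.7) and the stress ratio 1.27 (1.02 to 1.58), under the line. In the authors' deposited table the AAV difference had p = 0.0013 and q = 0.104.

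Fcgr3, an activating receptor of low affinity, stood at 8.87 FPKM in control, 17.3 in susceptible, 6.54 in AAV-GFP and 37.0 in AAV-CDYL. It was called higher in both pairs and was the only member above 1 FPKM in control called higher in susceptible. Its ratios were 1.95 (1.63 to 2.32) in the stress pair and 5.66 (4.87 to 6.62) in the AAV pair. Fcgr4, an activating receptor for IgG2 antibodies found on monocytes and neutrophils, stood at 0.395, 2.03, 0.167 and 8.09 FPKM. About 7 and 59 fragments gave a stress ratio of 5.13 (2.38 to 13.5), and about 5 and 242 an AAV ratio of 48.6 (19.4 to 143). Fcgr4 thus had the larger ratio in both pairs from the lower level.

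Fcgr2b is the inhibitory receptor of the family. It stood at 2.20 FPKM in control, 3.76 in susceptible, 1.75 in AAV-GFP and 19.8 in AAV-CDYL, with a ratio of 11.3 in the AAV pair and 1.71 (1.37 to 2.13) in the stress pair, where its difference of 0.57 missed the line. Fcgr1, the receptor of high affinity, stood at 1.23, 1.85, 2.10 and 14.5 FPKM. Fcgrt, the neonatal Fc receptor, which recycles antibody and albumin, stood at 4.89 FPKM in AAV-GFP and 9.52 in AAV-CDYL, the smallest ratio of the called Fc receptors at 1.95. Fcgr2b, Fcgr3 and Fcgr4 share long stretches of sequence, so the assignment of fragments among them is uncertain.

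Within the sum of the 4 Fc gamma receptors, the proportions differed between the AAV libraries more than between the stress libraries. That sum was 12.7 FPKM in control, 24.9 in susceptible, 10.6 in AAV-GFP and 79.4 in AAV-CDYL. Fcgr3 made up 69.9% in control, 69.3% in susceptible, 62.0% in AAV-GFP and 46.6% in AAV-CDYL. Fcgr2b made up 17.4%, 15.1%, 16.6% and 24.9%, and Fcgr4 3.11%, 8.14%, 1.58% and 10.2%, in the same order. The ratio of Fcgr3 to the inhibitory Fcgr2b was 4.03 in control, 4.59 in susceptible, 3.74 in AAV-GFP and 1.87 in AAV-CDYL. Fcgr4 took a larger share in the second library of both pairs, whereas the share of Fcgr2b was larger in AAV-CDYL and smaller in susceptible.

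**Figure D3:**
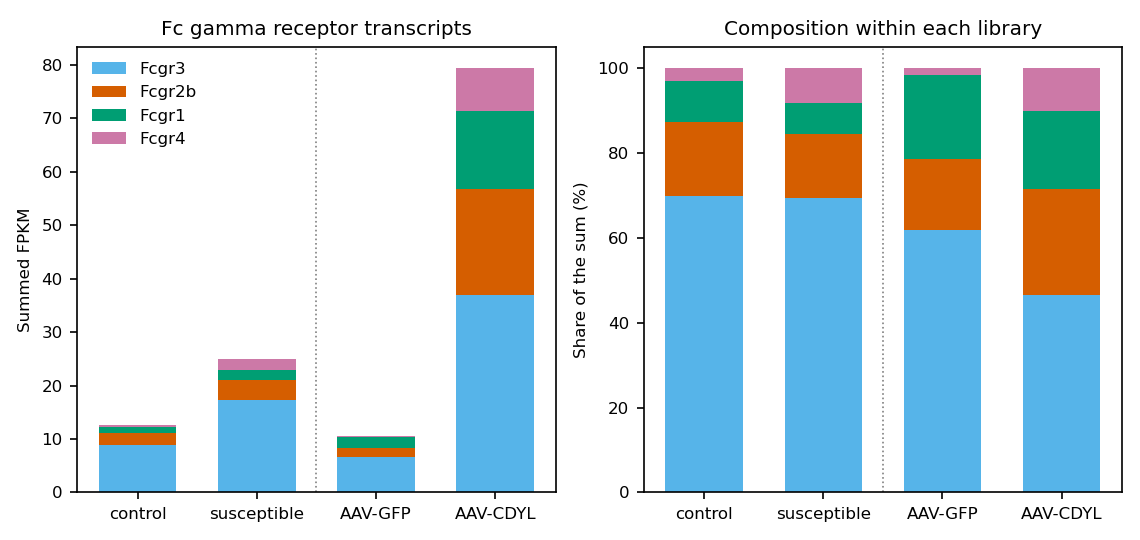
Fc gamma receptor transcripts in the 4 libraries, as stacked FPKM on the left and as percent of their sum on the right, with the dotted line between the separately normalized tables. The sum is 79.4 FPKM in AAV-CDYL and between 10.6 and 24.9 in the other 3 libraries, and the Fcgr3 share is lowest in AAV-CDYL, at 46.6%.

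Adaptors, kinases and phosphatases that act with the immunoreceptor tyrosine-based motif (ITAM) of Fc receptors and related lectins formed a list of 26. In the stress pair 11 of 18 listed passed, with 4 higher, 1 lower and a median of 0.38, beside 18.9% of all genes higher and 10.8% lower. At 1 FPKM or more in control 3 of 8 were higher, beside 13.5% of all such genes. Lat2, a membrane scaffold, stood at 1.49 and 4.04 FPKM, whereas Trem2, a microglial receptor for lipids, was lower, at 18.4 and 6.28. Of 22 in the AAV table, 21 passed and all 21 were higher, with a median of 2.02, beside 31.3% of all genes higher. At 1 FPKM or more in AAV-GFP this was 8 of 8, beside 21.2% of all such genes. Tyrobp, the ITAM adaptor of Trem2 and Clec5a, stood at 13.04 and 144 FPKM, the phosphatase Ptpn6 at 1.24 and 19.1, and Trem2 at 8.33 and 70.7. Trem2 therefore differed in opposite directions in the pairs.

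Members that lie together in the genome also stood higher together in the AAV pair. On chromosome 6, 7 lectin members from Clec2i to Clec7a (chr6:128887588-129472779) summed to 1.97 FPKM in AAV-GFP and 39.3 in AAV-CDYL, with all 7 above AAV-GFP, and the 6 of them in the stress table summed to 0.572 in control and 0.595 in susceptible. The Clec4 group (chr6:122921848-123289870) summed to 0.286 and 3.01 FPKM over 5 genes in the AAV pair and to 1.88 and 2.88 over 6 in the stress pair. The inflammatory caspases on chromosome 9 summed to 1.00 and 12.8 FPKM in the AAV pair and to 1.45 and 1.38 in the stress pair. The 4 members from Clec10a to the Nlrp1 copies on chromosome 11 (chr11:70156197-71285232) summed to 0.226 and 2.29 FPKM in the AAV pair and to 0.326 and 0.180 in the stress pair. In each of these 4 groups every listed member stood above AAV-GFP.

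The pairs share no library, so the members can be set side by side. Of 50 members in both tables, 37 stood above the reference in both, 2 below in both, 10 below in the stress pair and above in the AAV pair, and 1 the reverse. Over all 8539 genes in both tables, 3958 stood above the reference in both and 1962 below in both. Of 9 members at 1 FPKM or more in both references, 7 stood above in both, and over all genes at that level this was 1070 of 2706. Fcgr3, Fcgr4 and Il1b were called higher in both pairs, 3 of the 15 members that passed the floor in both. Over all genes that passed in both this was 491 of 3242. Fcgr4 and Il1b lay under 1 FPKM in both reference libraries, so they passed only through susceptible and AAV-CDYL. The AAV difference was the larger in 44 of the 50, and in 4771 of all 8539 genes; whether the pairs differ could not be tested with 1 library per group.

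**Figure D4:**
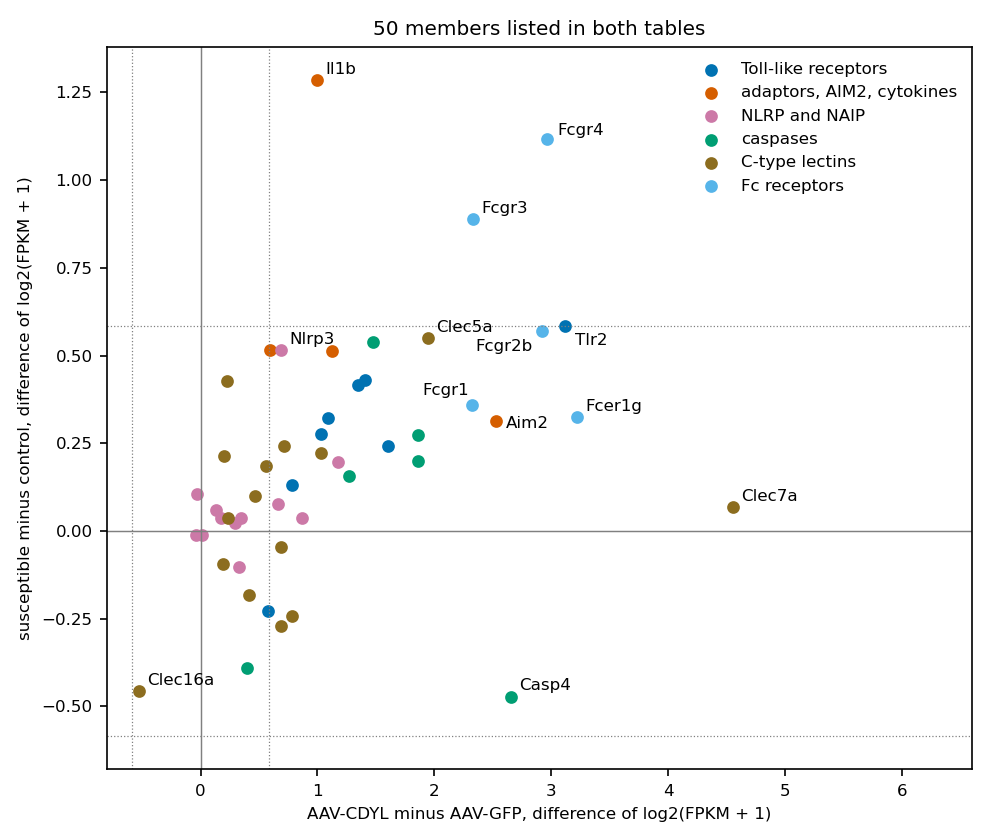
Difference of log2(FPKM + 1) for the 50 members listed in both tables, AAV-CDYL minus AAV-GFP on the horizontal and susceptible minus control on the vertical axis, coloured by class, with the 1.5-fold rule as dotted lines. Most points lie right of 0 and above 0. Il1b (1.00 and 1.29), Fcgr4 (2.96 and 1.12) and Fcgr3 (2.33 and 0.89) lie past both lines. Il1b and Fcgr4 were under 1 FPKM in both reference libraries. Casp4 (2.66 and -0.47) lies to the right and below.

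Levels of cell type markers differed beside the members in both pairs, and which share of a difference goes with them was not tested. In the stress pair the 12 microglial markers did not go the way of the Fc receptors: of 8 listed, all at 1 FPKM or more, none was higher and 4 were lower, and they summed to 77.5 FPKM in control and 41.0 in susceptible, with P2ry12 at 25.4 and 7.85. Neutrophil markers summed to 82.7 and 329 FPKM, with 7 of 8 passing markers higher, S100a8 at 38.0 and 150 and S100a9 at 35.5 and 133. Camp and Mpo were listed at 0 in control and at 2.86 and 0.153 in susceptible. Monocyte and macrophage markers summed to 9.12 and 36.7 FPKM, with 4 of 4 passing markers higher, Ly6c2 at 3.63 and 16.2. Ccr2, Lyve1 and Ms4a7, listed at 0 in control, stayed scarce in susceptible, at 0.0247, 0.137 and 0.0376 FPKM. Mrc1 was lower, at 0.213 and 0.141. At 1 FPKM or more in control 5 of 5 neutrophil and 2 of 2 monocyte and macrophage markers were higher, beside 13.5% of all such genes. These 2 lists thus stood higher beside Il1b, Fcgr3 and Fcgr4. T and NK cell markers summed to 0.504 and 2.09 FPKM, with the 1 that passed, Cd4, higher and passing only through susceptible. The 8 B and plasma cell markers listed lay under 1 FPKM, with sums of 0.923 and 0.947.

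Markers of most leukocyte types stood higher beside the members in the AAV pair. Microglial markers summed to 149 FPKM in AAV-GFP and 466 in AAV-CDYL, with 10 of 12 higher, Csf1r at 22.0 and 68.6 and Aif1 at 3.78 and 40.4, while P2ry12, at 23.4 and 29.7, was not called. Monocyte and macrophage markers summed to 8.66 and 156 FPKM, with 7 of 7 higher, Ly6c2 at 3.47 and 79.1 and Cd68 at 3.17 and 37.3. B and plasma cell markers summed to 0.572 and 96.3 FPKM, with 7 of 7 higher, Jchain at 0.183 and 77.6, and Blk, Cd79a and Mzb1 among the markers listed at 0 in AAV-GFP. T and NK cell markers summed to 1.88 and 36.5 FPKM, with 10 of 10 higher and 9 of the 12 listed at 0 in AAV-GFP. Dendritic cell markers summed to 17.0 and 209 FPKM, with 5 of 6 higher. Most of the AAV-CDYL sum was Bst2, at 3.92 and 163, which interferon also raises. Siglech, at 6.06 and 23.9, is on the microglial list as well and is counted in both lists. At 1 FPKM or more in AAV-GFP, 3 of 3 monocyte and macrophage markers were higher, and 1 of 1 T and NK cell markers. For dendritic cells this was 2 of 3, Siglech and Bst2. No B and plasma cell marker reached that level, so all 7 passed only through AAV-CDYL. Of all genes at that level 21.2% were higher, beside 31.3% with the floor met in either library. Neutrophil markers summed to 1.76 and 3.46 FPKM. The 2 that passed did so only through AAV-CDYL and were higher, S100a8 at 0.771 and 1.74 and S100a9 at 0.172 and 1.09. Ltf was lower, at 0.520 and 0.0313 FPKM, and Ly6g, at 0.0613 in AAV-GFP, was listed at 0 in AAV-CDYL.

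Markers of resident brain cells differed as well in both pairs. Oligodendrocyte markers summed to 609 FPKM in control, 1574 in susceptible, 655 in AAV-GFP and 2548 in AAV-CDYL, with 8 of 9 and 10 of 10 higher. Astrocyte markers summed to 402, 666, 206 and 699 FPKM, with 3 of 6 higher in the stress pair. In the AAV pair 5 of 6 astrocyte markers were higher and 1 was lower. Endothelial markers summed to 80.2 and 223 FPKM over 8 listed in the stress pair and to 91.9 and 173 over 7 in the AAV pair. Neuronal markers summed lower in the second library of each pair, at 1616 and 1163 FPKM with 1 of 5 called lower and at 4154 and 2668 FPKM with 5 of 8 called lower. All markers counted for these brain cells stood at 1 FPKM or more in the reference library. Of all such genes 13.5% were higher and 12.4% lower in the stress pair, and 21.2% and 17.4% in the AAV pair. The 1 of 5 neuronal markers lay near that background. Red blood cell markers summed to 873 and 519 FPKM in the stress pair over 5 listed markers; the AAV table lists 1 of them, Alas2, at 1.501 and 0.569 FPKM. Mast cell and basophil markers differed little in sum, at 14.8 and 15.2 FPKM and at 2.69 and 2.03 FPKM.

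**Figure D5:**
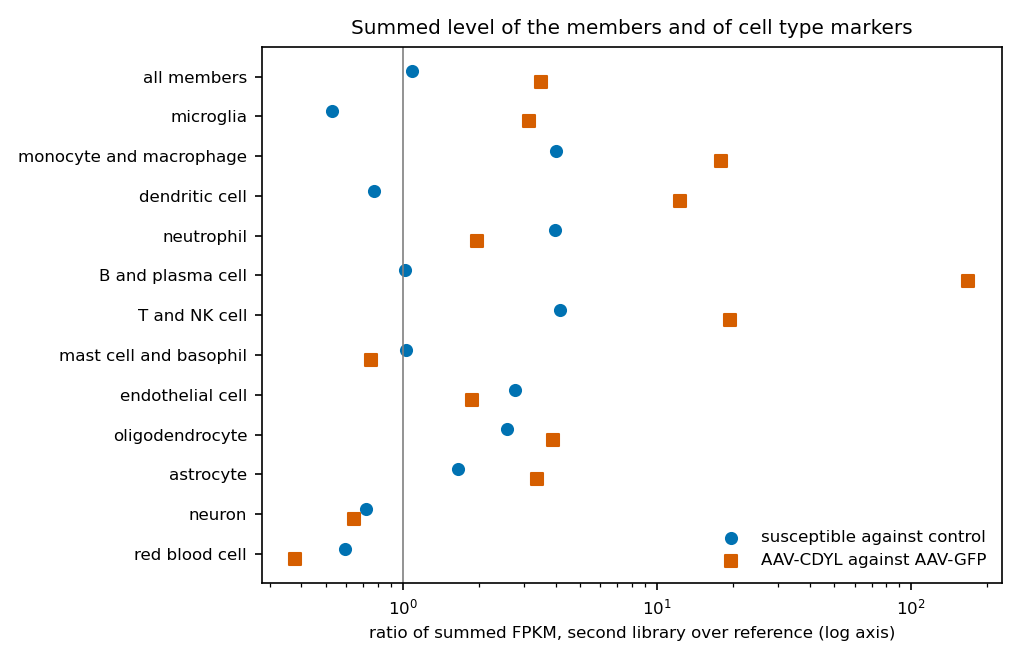
Ratio of summed FPKM, susceptible over control (circles) and AAV-CDYL over AAV-GFP (squares), on a log axis for all members and for each cell type marker list; the line marks a ratio of 1. In the AAV pair the ratio is 3.51 for the members and 3.13 for microglia. It is 18.0 for monocytes and macrophages and 168 for B and plasma cells. In the stress pair it is 1.09 for the members, 0.529 for microglia and 3.98 for neutrophils. The members' sums include Clec16a, at 35.5 FPKM in control and 29.9 in AAV-GFP, and Clec2l, at 21.7 in AAV-GFP. Both were lower in the second library of each pair that lists them.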

How the data were processed

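RNA sequencing libraries of mouse prelimbic cortex, 1 for each of 4 groups, were analysed from 2 tables, 1 for each pair. Trizol was used for RNA extraction and a NEBNext Ultra kit for the libraries, per the labels' protocols. The FPKM values were made by the authors with Cuffdiff on mm10, per the submitters' processing notes; the sources used here do not give the aligner, the annotation or any version. The authors' deposited tables also hold p-values and q-values, printed only as theirs, and other columns that were not used. The tables were normalized separately, and 0 per-sample columns were unmapped.

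Differences of log2(FPKM + 1) were taken within a table. Members and lists were chosen with earlier results of these data known. Members at 1 FPKM or more in any library could be named, others only if listed at 0 in 1 library of a pair and at 0.5 or more in the other; up to 3 genes of each pathway list and 3 markers of each cell type list could be named, and some of these are not reported here. Positions and overlaps come from GENCODE M21 on the same build, and promoter windows from RefSeq (GRCm38.p6). Depth was read from genes with 1 transcript, where 89.6% to 96.4% of low values lay within 0.15 of a whole step. Of listed genes, 31.2% and 33.3% shared a Cuffdiff locus with another, among them 8 and 10 members. Other settings tried were no floor, pseudocounts of 0.1 and 0.5, floors of 5 FPKM or in the reference alone, a 2-fold rule, centring, upper-quartile scaling, leaving out shared loci, and other thresholds on the authors' values. The size rule was tried on simulated data with counting error only, for genes at a mean of 5 FPKM or more and changes larger than 1.5-fold. That trial does not cover members at lower levels or the spread between animals. Scripts ran in Python 3.11.15; tables were handled with pandas 2.3.3 and numpy 2.4.6, intervals came from scipy 1.17.1 and figures from matplotlib 3.10.9.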

Additional observations from a re-analysis of the deposited data

How the results depend on the processing

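With 1 library per group no result here has a replicate check, and no sample could be left out. No paired analysis was possible because each group has 1 library. The stress counts depended on the settings: 4 members were called as reported, 9 (8 higher) with a pseudocount of 0.1, 8 (7 higher) with 0.5, 2 (1 higher) with a floor of 5 FPKM, 2 (1 higher) with the floor in control alone, and 7 (4 lower, Casp2, Casp8ap2 and Clec16a among them) after centring on the median of all genes. The median stress difference, 0.36 over the 17 passing members, was 0.56 with a pseudocount of 0.1, 0.17 with no floor, -0.033 with a floor of 5 FPKM, where 6 members pass, and 0.11 after centring, when Casp8 (-0.046) and Clec4a3 (-0.023) turned below 0. The median of all passing genes was 0.24 in the stress pair and 0.30 in the AAV pair; centring on it gave 532 higher and 1918 lower genes in the stress pair and 1630 and 3572 in the AAV pair.

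In the AAV pair the 31 higher members became 17, of 17 called, with a floor of 5 FPKM and 12, of 13 called, with the floor in AAV-GFP alone. Under the other settings between 26 and 39 were higher, and every member called higher in the reported setting stayed above AAV-GFP. The 1 lower member became 2 with a pseudocount of 0.1 or 0.5 (Clec11a and Clec18a), 0 with a floor of 5 FPKM or the 2-fold rule, and 4 after centring (Clec11a, Clec16a, Clec18a and Clec2l). The median, 1.35, was 2.45 with a pseudocount of 0.1, 0.75 with no floor and 2.33 with a floor of 5 FPKM. Counts by the authors' p under 0.05 were 3 and 18 members, in place of 0 and 1 by q. Depth limits the members under 1 FPKM: values such as Il1b in control and Clec7a in AAV-GFP rest on about 1 fragment.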
